A study of Homo sapiens with 2 samples.

Results

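Guanylate-binding proteins (GBPs) are large GTPases of the dynamin superfamily that cells make after exposure to interferons. The members described are GBP1, GBP2, GBP3, GBP4 and GBP5, taken by gene symbol from the deposited count table, 5 of 63677 genes. RNA was sequenced from 2 cultures of HGC-27, a human gastric carcinoma cell line, 48 hours after transfection with the reagent INTERFERin. The control culture received the empty plasmid pcDNA3.1 and the other culture received pcDNA3.1-lncPSCA, which expresses the long non-coding RNA lncPSCA. The comparison asks what changes in the transcriptome when lncPSCA is overexpressed, and here what it shows for the GBPs. Each group is 1 library, so no difference has a replicate check and no p-value is given. Every interval is a 95% interval for counting error only, except where a spread between cultures is assumed.

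GBPs bind and hydrolyse GTP, assemble into oligomers and coat the membranes of intracellular bacteria and of the vacuoles around parasites. They are classical targets of interferon gamma, whose signal reaches them in part through IRF1, and they also respond to type I interferons, which act through the complex named ISGF3. GBP1, GBP2 and GBP5 end in a motif that receives a prenyl lipid anchor, whereas GBP3 and GBP4 lack one. The genes lie side by side on chromosome 1. In the RefSeq order the protein-coding genes of the cluster run GBP3, GBP1, GBP2, GBP7, GBP4, GBP5 and GBP6, followed by the pseudogene GBP1P1.

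The ISGF3 complex and interferon regulatory factors bind the interferon-stimulated response element, here searched as its core GAAANNGAAA or, on the other strand, TTTCNNTTTC. RefSeq windows (GRCh38.p14) of 250 bases before to 50 bases after the annotated start were at hand for GBP1, GBP3 and GBP4, and each of these 3 windows held 1 match. The matches are shown because all 3 windows held this chosen core. Apart from the gamma-activated site below, no other motif was searched. Each is printed 5′ to 3′ on the gene's strand with the core in capitals.

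GBP1: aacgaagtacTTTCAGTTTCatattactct

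GBP3: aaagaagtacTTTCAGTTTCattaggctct

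GBP4: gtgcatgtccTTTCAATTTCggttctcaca

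The GBP1 site lies at chr1:89065316-89065345, the GBP3 site at chr1:89022845-89022874 and the GBP4 site at chr1:89198927-89198956, all on the minus strand. GBP1 and GBP3 share a run of 19 identical bases over this element, gaagtactttcagtttcat, the longest run their 2 windows have in common. The core begins 127 bases before the RefSeq start of GBP1, 4 bases before that of GBP4 and at base 3 after the start of GBP3. Start sites differ between annotations: counted from the GENCODE release 29 gene start, the GBP1 core begins at base 26 and the GBP3 core at base 31 of the gene, and the GBP4 core 14 bases before it. Of all 35116 RefSeq windows of this length, 3.57% held the core. The windows of GBP6 and GBP7 held none. The gamma-activated site, an element of interferon gamma targets, searched as TTCNNNGAA, which reads the same on both strands, matched the GBP3 window once and the GBP1 and GBP4 windows nowhere; 7.66% of all windows held it. The GBP3 match, actgagtcacTTCCTTGAAagaagtactt (chr1:89022863-89022891, minus strand), lies just before the response element core, so its printed flank overlaps that site. A match describes letters and does not show that a factor binds there.

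Sequencing depth was 21552098 counts in control and 23016646 in lncPSCA. lncPSCA has no row of its own under that name, so its level is not given; PSCA, the gene whose symbol its name contains, had 22 reads in control and 28699 in lncPSCA. Levels are given as CPM, counts per 1000000 counts of the library size scaled by TMM, a method that centres most genes on no difference. VIM, vimentin, stood at 2601 and 2594 CPM. The epithelial keratin gene KRT8 had 66 reads in control and 58 in lncPSCA. The epithelial marker EPCAM had 7 reads in each library, and the keratin genes KRT18 and KRT19 had 4 and 1 reads in control and none in lncPSCA. Both keratins have near-identical copies that can take their reads, and whether this happened here was not tested. The 8 leukocyte markers, whose cells are rich in GBPs, summed to 5.78 CPM in control and 4.72 CPM in lncPSCA. Most of these reads were from the myeloid genes CD68, with 34 and 58 reads, ITGAM with 37 and 21, and CD14 with 29 and 23. Their folds were 1.53 (0.986 to 2.41) for CD68, 0.509 (0.283 to 0.893) for ITGAM and 0.712 (0.393 to 1.27) for CD14. The part of such cells in the GBP values was not tested. CD3E and MS4A1, which define T cells and B cells, had no reads in either library. Of 4 endothelial markers, VWF had 5 and 13 reads, and PECAM1, CDH5 and KDR had none.

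All GBP transcripts were scarce in the control culture, and each of the 5 had more reads in the lncPSCA culture. Together the 5 members had 26 control reads and 246 lncPSCA reads, or 1.23 and 10.5 CPM. The summed fold was 8.49 (5.66 to 13.3). In RNA from whole cultures, more cells that express a GBP and more GBP RNA per cell cannot be told apart. Without GBP1 the sum was 18 and 85 reads, a fold of 4.24 (2.53 to 7.49).

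**Figure D1:**
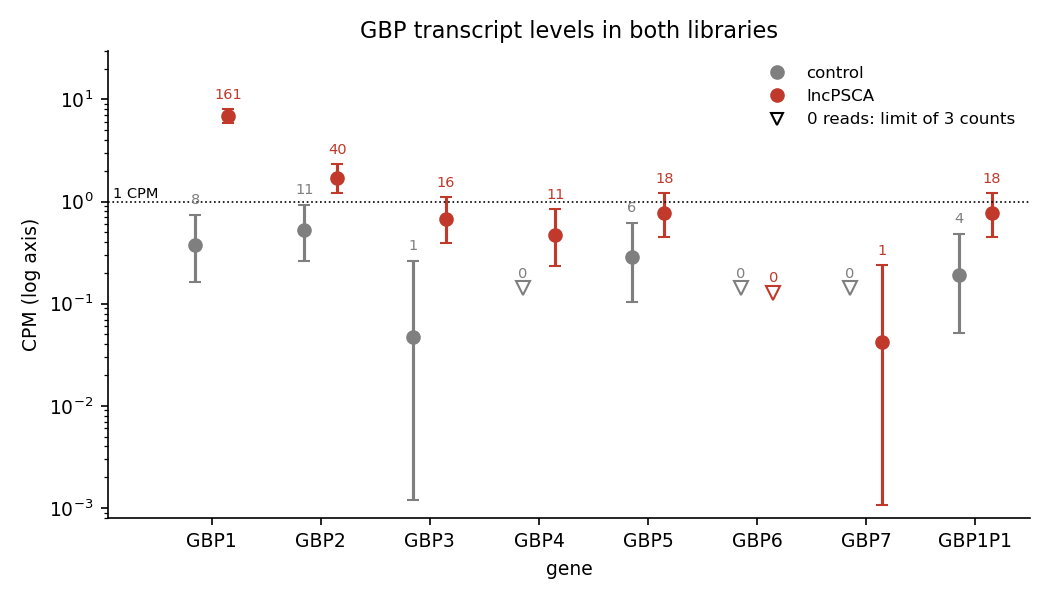
CPM of each GBP gene (log axis) in the control library (grey) and the lncPSCA library (red), with exact 95% Poisson intervals for counting error and the read count above each point; open triangles mark 0 reads, drawn at the limit of 3 counts. GBP1 and GBP2 lie above 1 CPM in lncPSCA, and no gene does in control.

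GBP1 (ENSG00000117228), which binds bacterial lipopolysaccharide and starts the assembly of a GBP coat on bacteria that escape into the cytosol, gained the most reads. It had 8 reads in control and 161 in lncPSCA, or 0.379 and 6.85 CPM, and the counting intervals of the 2 levels (0.164 to 0.747 and 5.83 to 7.99 CPM) did not overlap. The fold was 18.1 (8.95 to 42.6), and the log2 ratio of 4.02, on counts plus a pseudocount of 1, was the 45th highest of 15440 genes with a mean of at least 1 CPM. GBP1 reached that mean through the lncPSCA library alone, so it had to differ to be ranked.

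GBP2 (ENSG00000162645), a geranylgeranylated member that joins GBP1 on bacteria and, with GBP5, inhibits the protease furin, had 11 and 40 reads. Its control level was 0.521 CPM (0.260 to 0.933) and its lncPSCA level 1.70 CPM (1.22 to 2.32), again without overlap. The fold was 3.26 (1.64 to 7.05).

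GBP3 (ENSG00000117226), a member without a lipid anchor, had 1 read in control and 16 in lncPSCA. Its ratio of 14.4 has an interval of 2.23 to 602, since a single control read fixes the base poorly. GBP4 (ENSG00000162654), also without an anchor, had 0 control reads and 11 in lncPSCA, or 0.468 CPM. Against the limit of 3 counts that a count of 0 allows (0.142 CPM), GBP4 was at least 3.29-fold higher when its 11 lncPSCA reads are taken as exact; with their counting error included, the interval of the fold began at 2.25.

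GBP5 (ENSG00000154451), a Golgi-associated member that promotes assembly of the NLRP3 inflammasome, had 6 and 18 reads. It stood at 0.284 CPM in control (0.104 to 0.619) and 0.766 CPM in lncPSCA (0.454 to 1.21), so the 2 intervals overlapped. The fold of 2.69 had an interval that began at 1.02. It was the only one of the 5 whose fold interval began below 1.5.

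Outside the 5 members, GBP6 had no reads in either library and GBP7 had 0 and 1, at or under the limit of 3 counts, so no fold is given for them. The pseudogene GBP1P1 had 4 and 18 reads, a fold of 4.04 (1.33 to 16.4). GBP1P1 resembles GBP1: of the 50-base windows of the longest GBP1 transcript in GENCODE release 29, 13.3% also occur in a transcript of another gene, 324 of 398 such windows in GBP1P1. At 100 bases the share falls to 1.87%. For GBP2 the shares were 17.6% and 14.6%, nearly all with GBP7, whose annotation overlaps GBP2 on the same strand and which had 1 read. For GBP3 they were 3.44% and 0, for GBP4 5.99% and 0.780%, and for GBP5 3.03% and 1.26%. How reads with several matches were counted is not given in the sources used here, so the split between GBP1 and GBP1P1, and between GBP2 and GBP7, is uncertain.

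A fixed size rule served to describe genes in place of a test: a mean of at least 1 CPM, a ratio (with the pseudocount) of 2-fold or more, and a counting interval wholly beyond 1.5-fold. "Higher" and "lower" refer to this rule, lncPSCA relative to control. Over 15440 genes 3.02% were higher and 0.596% were lower. Only GBP1 and GBP2 reached the mean of 1 CPM, both through the lncPSCA library alone, so they had to differ to be counted; both were higher, and this count is no support for a change in the family. With no CPM minimum, GBP1, GBP2, GBP3 and GBP4 met the rest of the rule and GBP5 did not. Under that looser rule 2.19% of the 27941 genes with a read were higher and 0.537% lower. Among the 6327 genes with as many reads as the members, 11 to 169 over both libraries, 4.0% were higher and 1.30% lower. With the CPM minimum and a limit of 4-fold, GBP1 was higher and GBP2 was not; 0.790% of all measured genes were then higher and 0.0648% lower.

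**Figure D2:**
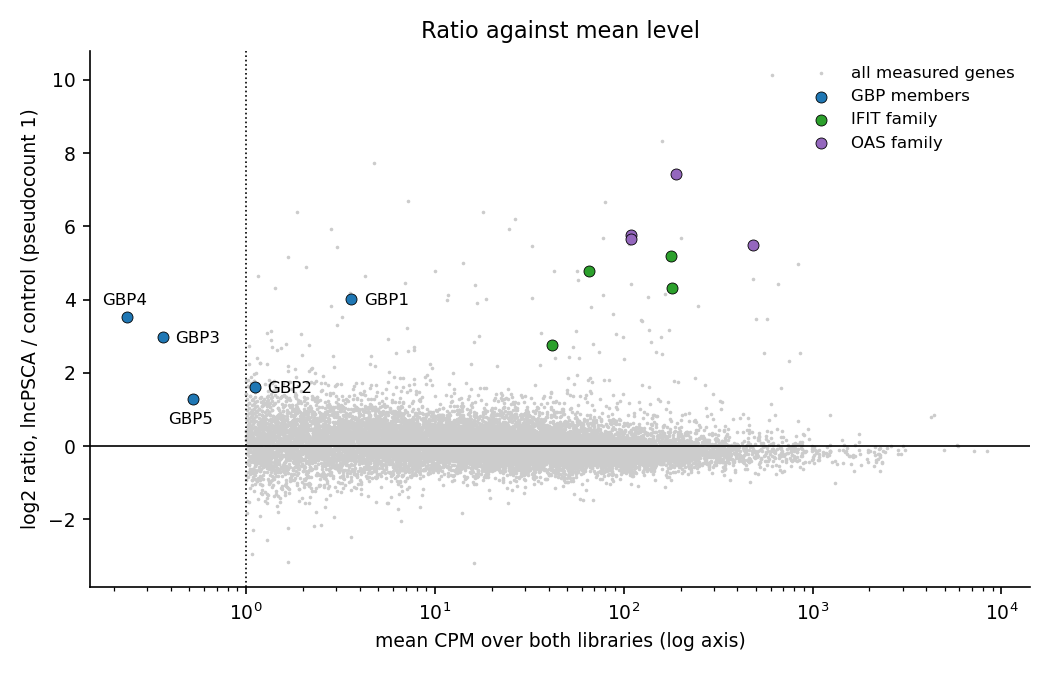
Log2 ratio of lncPSCA over control (pseudocount 1) against mean CPM (log axis) for 15440 measured genes (grey), the 5 GBP members (blue), IFIT genes (green) and OAS genes (purple); the dotted line marks 1 CPM. GBP1 stands at 4.02 and GBP2 at 1.62, and GBP3, GBP4 and GBP5 lie left of the line; their ratios rest on 11 to 24 reads.

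The make-up of the GBP pool differed between the libraries, a comparison in which library scaling cancels. GBP2 held the most reads in control, 42.3% (23.4 to 63.1, exact Clopper-Pearson interval), ahead of GBP1 with 30.8% (14.3 to 51.8). In lncPSCA, GBP1 held 65.4% (59.1 to 71.4) and GBP2 16.3% (11.9 to 21.5). GBP1 and GBP2 could not be ordered in control by these intervals, and in lncPSCA they were well apart. GBP5 went from 23.1% (8.97 to 43.6) to 7.32% (4.39 to 11.3), with overlapping intervals. GBP3 was at 3.85% and 6.50%. GBP4 was at 0 of 26 reads, which allows a share of up to 11.5%, and at 4.47%.

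Of the 10 pairs of members, 2 had folds that differed beyond counting error. The fold of GBP1 exceeded that of GBP2 by a factor of 5.48 (1.87 to 16.8, exact conditional interval) and that of GBP5 by a factor of 6.60 (1.69 to 24.6). For the other pairs the interval included 1, which does not show equal folds: that of GBP1 over GBP3, for example, ran from 0.0267 to 10.5.

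Levels of different genes were compared per kilobase of the longest GENCODE transcript. In lncPSCA the order was GBP1 at 2.26 CPM per kilobase (1.92 to 2.63), GBP2 at 0.461 (0.330 to 0.628), GBP3 at 0.185 (0.106 to 0.300), GBP5 at 0.163 (0.0966 to 0.258) and GBP4 at 0.0764 (0.0381 to 0.137). GBP1 stood apart from GBP2 and GBP2 from GBP3, whereas the intervals of GBP3, GBP5 and GBP4 overlapped. In control, GBP2 at 0.141, GBP1 at 0.125 and GBP5 at 0.0605 CPM per kilobase could not be ordered by their intervals, GBP3 was at 0.0129 and GBP4 had no reads.

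The genes flanking the cluster had folds below the interval of GBP1, but not all lay below those of the other members. The folds of LRRC8B, at 1.74, and ZNF644, at 1.92, lay within the intervals of GBP2 (1.64 to 7.05) and GBP5 (1.02 to 8.29). Of 10 listed flanking genes, all protein-coding and measured, none was higher and none was lower (under total-count scaling 1, ZNF644, was higher), and their median log2 ratio was 0.30, against -0.02 over all measured genes. Since only 3.02% of all measured genes were higher and 0.596% lower, a count of none among 10 says little. On the GBP3 side, RBMXL1 had 371 and 349 reads, a fold of 0.844 (0.727 to 0.980). KYAT3, a kynurenine aminotransferase gene, was at 0.896 (0.795 to 1.01), and GTF2B, a general transcription factor, at 0.849 (0.746 to 0.965). Past GBP1P1, LRRC8B, a volume-regulated anion channel subunit, had 217 and 421 reads, a fold of 1.74 (1.47 to 2.06), and its relatives LRRC8C and LRRC8D were at 1.21 (0.944 to 1.55) and 1.26 (1.13 to 1.41). The list leaves out the genes between HS2ST1 and BARHL2 that code for no protein, of which 17 matched a row by symbol and 3 were measured. The long non-coding RNA gene LRRC8C-DT, with 29 and 77 reads and a fold of 2.38 (1.54 to 3.79), was higher. That fold lay within the intervals of GBP2, GBP3, GBP4 and GBP5. The pseudogenes PTGES3P1 and GEMIN8P4 were at 0.681 (0.512 to 0.901) and 1.21 (0.802 to 1.84). The 2 most abundant of the 10 were LMO4, at 93.0 and 130 CPM, and ZNF326, at 42.1 and 32.1 CPM.

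**Figure D3:**
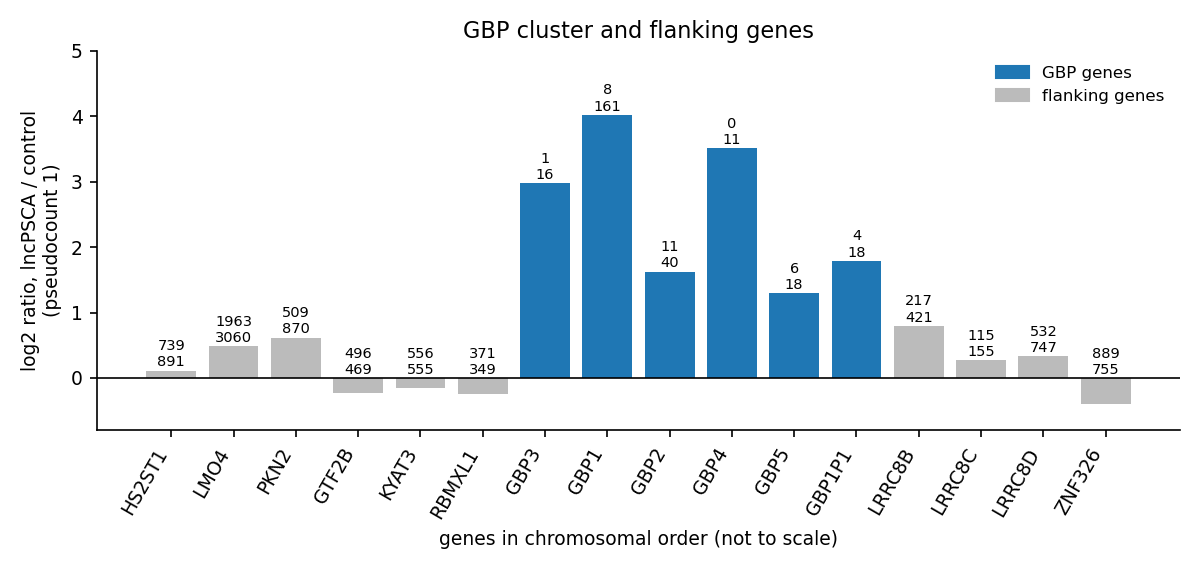
Log2 ratio of lncPSCA over control (pseudocount 1) for GBP genes (blue) and neighbouring genes (grey) in chromosomal order, with control reads above lncPSCA reads over each bar; GBP6, GBP7 and BARHL2, with 1 read or none, are left out, and the bar of GBP4 depends on the pseudocount. The GBP bars reach 1.30 to 4.02, and the flanking genes drawn stay between -0.39 and 0.80. ZNF644, at 0.94, lies beyond the stretch drawn. Genes that do not code for protein, other than GBP1P1, are left out, among them LRRC8C-DT at 1.23.

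Set beside other interferon-induced families, the GBPs had fewer reads and a smaller summed fold. The 4 IFIT genes, whose proteins bind viral RNA, summed to 42.0 and 890 CPM, 21.2-fold (19.8 to 22.7). The 4 OAS genes, whose enzymes activate RNase L, summed to 31.0 and 1748 CPM, a fold of 56.3 (52.1 to 60.9). The summed IFIT fold was 2.49 times that of the GBPs (1.66 to 3.76), and the summed OAS fold was 6.63 times (4.40 to 10.0). GBP1 taken alone had a fold whose interval held those of IFIT1 (17.9 to 22.2), IFIT2 and IFIT3. The interval of GBP1 lay wholly above that of IFIT5 (5.91 to 7.85) and wholly below those of OAS1 and OAS2, and it overlapped those of OAS3 and OASL. The response element core was present in the windows of IFIT1, IFIT3 and IFIT5, 3 of 3 IFIT genes with a window, and of OAS3, 1 of 2 OAS genes.

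**Figure D4:**
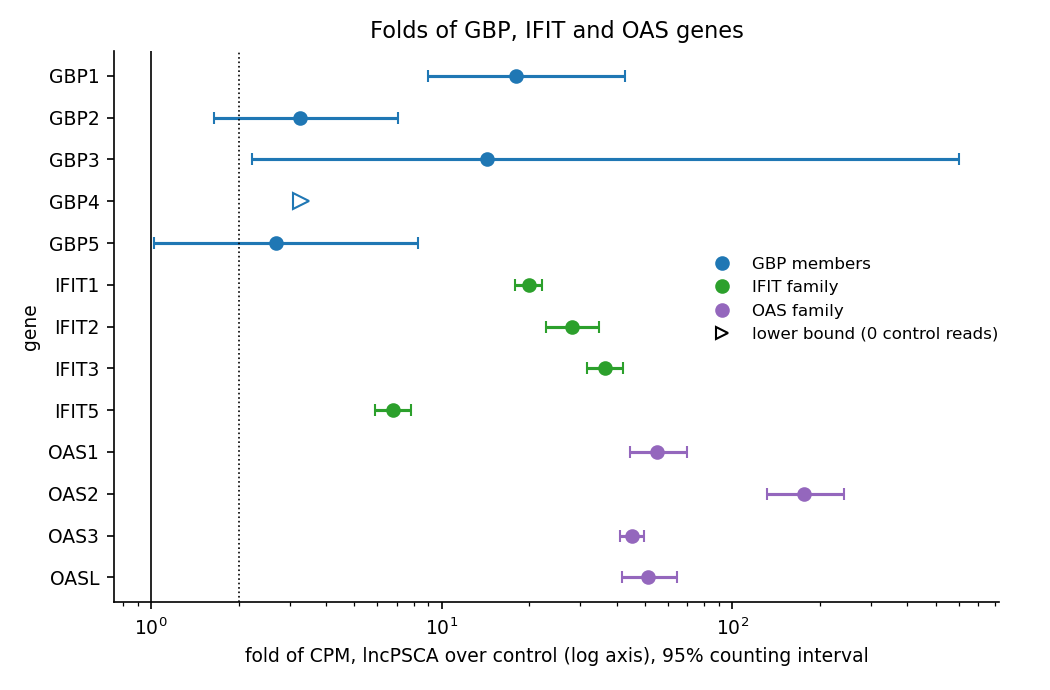
Fold of CPM, lncPSCA over control (log axis), with 95% counting intervals for GBP (blue), IFIT (green) and OAS (purple) genes; solid and dotted vertical lines mark folds of 1 and 2, and the open triangle is GBP4 against the limit of 3 control counts (3.29), with its lncPSCA reads taken as exact and no interval drawn. The GBP intervals are wide, from 2.23 to 602 for GBP3, and the OAS folds lie between 45.2 and 177.

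Over all measured genes, 3.02% were higher and 0.596% lower. Of the genes that carry the interferon gamma signal, 2 of 9 measured were higher and none was lower (median log2 ratio 0.32). They were the feedback inhibitor SOCS1 at 4.81 (3.31 to 7.21), and IRF1, a transcription factor that drives GBP genes, at 2.79 (2.51 to 3.11). IFNG itself had no reads in either library. The receptor genes IFNGR1 and IFNGR2 had folds of 0.969 (0.886 to 1.06) and 0.879 (0.786 to 0.984), and the kinase gene JAK1 was at 1.12. Of 7 measured genes of the ISGF3 axis, 3 were higher and none was lower (median 0.14). USP18, a negative regulator of interferon receptor signalling, was at 10.8 (9.79 to 11.9), STAT2 at 7.93 (7.35 to 8.56), and IRF9 at 3.26 (2.11 to 5.19) on 27 and 98 reads. TYK2, a receptor kinase, was at 1.10 and the receptor IFNAR1 at 1.01.

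Genes known as targets of interferon gamma were uneven. Of 20 listed, 9 were measured, of which 5 were higher and none was lower (median 2.05). The shares over all measured genes were 3.02% higher and 0.596% lower. CXCL10, CXCL11 and the gene at the median reached the mean of 1 CPM through the lncPSCA library alone. They had to differ to be counted, so the count and the median lean upward. The chemokine genes CXCL10 and CXCL11 had 2 and 1 control reads against 337 and 77, ratios of 151 (41.5 to 1254) and 69.1 (12.0 to 2764). The peptide transporter gene TAP1 was at 5.71 (5.35 to 6.11) and the immunoproteasome gene PSMB9 at 5.33 (4.78 to 5.95). WARS1, a tryptophanyl-tRNA synthetase, fell short of the rule at 1.69 (1.64 to 1.74), as did CIITA, the master regulator of MHC class II genes, at 8.72 and 7.74 CPM. HLA-DRA, IDO1 and UBD had no reads in either library, and CXCL9 had 0 and 1.

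Among proteins that act with or on GBPs, 5 of 11 measured genes were higher and none was lower (median 1.11). Beside this, 3.02% of all measured genes were higher and 0.596% lower. APOL1, APOL3 and the gene at the median reached the mean of 1 CPM through the lncPSCA library alone. They had to differ to be counted, so this count and median also lean upward. APOL3, a detergent-like protein that acts after GBP1 on bacterial membranes, had 2 and 65 reads, a ratio of 29.2 (7.76 to 246). Its relatives APOL6 and APOL1 were at 16.5 (12.2 to 22.8) and 15.9 (7.49 to 40.4). UBE2L6, the ISG15-conjugating enzyme, was at 11.0 (9.98 to 12.2). SQSTM1, an autophagy receptor, fell short of the rule at 0.672 (0.649 to 0.697), as did APOL2 at 1.87 (1.69 to 2.08). FURIN, the protease that GBP2 and GBP5 inhibit, was at 0.931 (0.832 to 1.04), and PIM1, a kinase that restrains GBP1, at 0.929 (0.829 to 1.04).

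The enzymes that attach and process the lipid anchors of GBP1, GBP2 and GBP5 did not meet the rule: none of 6 measured genes was higher or lower, with a median of -0.20. Over all measured genes only 3.02% were higher and 0.596% lower, so a count of none among 6 says little. ICMT, which methylates prenylated proteins, was at 0.795 (0.761 to 0.830) and ZMPSTE24, a protease of the same pathway, at 0.637 (0.599 to 0.676). Inflammasome and pyroptosis genes, on which GBPs act in macrophages, were mostly scarce. Of 12 listed, 3 were measured and none was higher or lower (median 0.24), a count that says as little. NINJ1, which ruptures dying cells, was at 1.18 (1.09 to 1.29). CASP4, the caspase that GBP1 brings to lipopolysaccharide, had 204 and 370 reads, a fold of 1.63 (1.37 to 1.94). GSDMD, the pore former, had 16 and 5 reads, a fold of 0.280 (0.0804 to 0.801). Its mean lay below 1 CPM, so it was not counted. AIM2, CASP5 and IL18 had no reads in either library.

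Of the other large GTPases listed, 2 of 6 measured were higher and none was lower (median -0.15). MX2 was at 337 (218 to 551), and it reached the mean of 1 CPM through the lncPSCA library alone. MX1, its close relative, had 22 and 86 reads, a fold of 3.51 (2.18 to 5.89). The atlastins ATL3 and ATL2, membrane-fusing GTPases related to GBPs, were at 0.794 (0.748 to 0.844) and 0.902 (0.846 to 0.962). Of 7 genes listed as NF-kB regulators, TNFAIP3 was higher at 3.55 (2.80 to 4.54), none was lower, and the median was 0.31. The shares over all measured genes were 3.02% higher and 0.596% lower. RELA was at 0.863 and NFKB2 at 1.30.

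**Figure D5:**
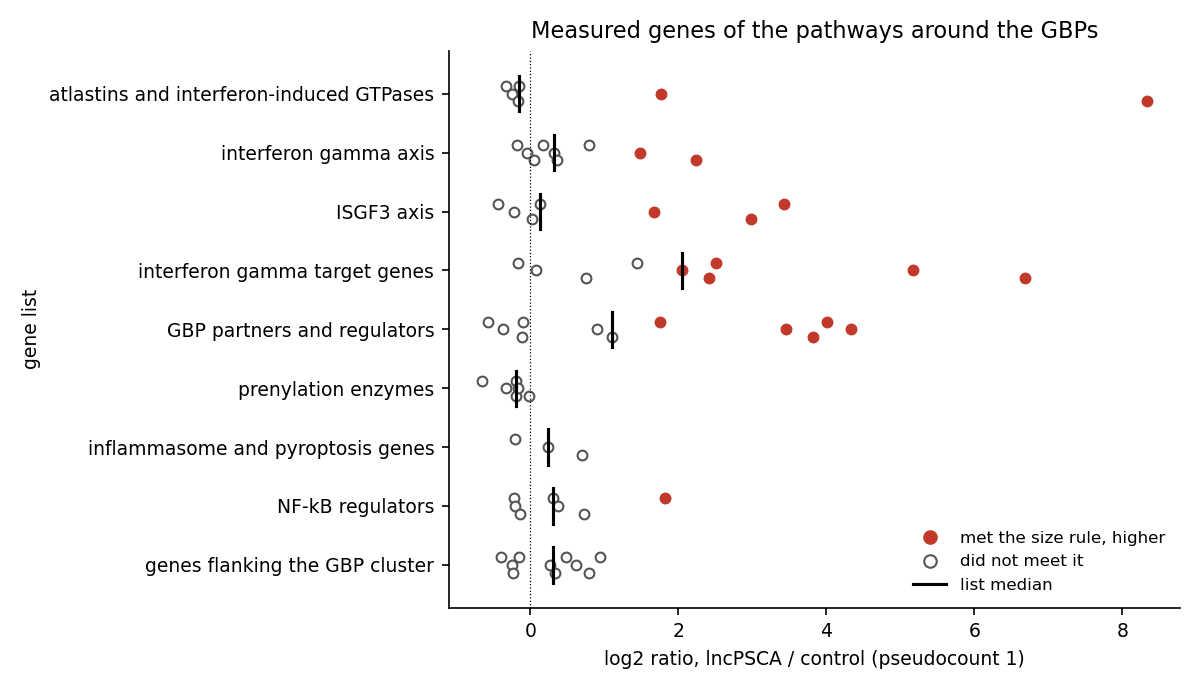
Log2 ratio of lncPSCA over control (pseudocount 1) for the measured genes of 9 lists around the GBPs; filled red points met the size rule as higher, open points did not meet it, and black bars are list medians. The medians of the prenylation and GTPase lists are -0.20 and -0.15, that of the inflammasome list is 0.24, and that of the interferon gamma targets is 2.05. In the lists of interferon gamma targets and GBP partners, the gene at the median reached a mean of 1 CPM through the lncPSCA library alone.

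Among genes with a mean CPM within 2-fold of each member, those with the nearest log2 ratio over the 2 libraries were picked. For GBP1, among 2939 such genes, these were SERPING1, the C1 inhibitor of complement, with 7 and 159 reads and a log2 ratio 0.15 away, and APOL1, with 7 and 124 reads and 0.20 away. For GBP2, among 1568, they were SPOCK3 with 19 and 68 reads and SMOC2 with 10 and 37, both within 0.02. Likeness over 2 libraries is a match of 1 ratio only.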

How the data were processed

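RNA-seq read counts per Ensembl gene were deposited as 1 table with a column for each of 2 libraries; the counts are whole numbers that the authors did not normalize. The submitters' processing notes name TopHat2, HTSeq and hg19; versions, annotation release, strand setting, read filters and the handling of multiply mapped reads are not stated there. All rows name genes. Symbols matched 81.9% of identifiers.

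Library sizes were scaled with the TMM factors of edgeR 4.0.16. Folds are CPM ratios, lncPSCA over control, with exact Clopper-Pearson counting intervals, and levels carry exact Poisson intervals. Ratios of folds are odds ratios with exact conditional intervals, or normal ones between family sums. Fold intervals with an assumed spread between cultures are normal ones on the log scale. Reads are not independent molecules, so true counting error may be wider. With 1 library per group no test was run. Calculations were tested on simulated data with counting noise only. The changed genes simulated were more abundant than any member, so calls at the depth of the members were not tested.

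Named genes were the members, GBP6, GBP7, GBP1P1, PSCA, up to 4 genes per list with the largest ratio that met the size rule, and the 2 most abundant that did not. Genes named for their place or role after their values were seen were EPCAM, KRT18, KRT19, CD14, CD3E, MS4A1, CDH5, KDR, the flanking genes other than LMO4 and ZNF326, LRRC8C-DT, PTGES3P1, GEMIN8P4, IFNG, IFNGR2, HLA-DRA, IDO1, UBD, CXCL9, FURIN, PIM1, CASP5, GSDMD, AIM2 and IL18. Members and lists were chosen with earlier results of these data known. Some genes of the lists are not reported here and were left out of the list counts and medians. Alternatives were other scalings (DESeq2 1.42.0, total, upper quartile), CPM minimums, pseudocounts and fold limits, an assumed spread between cultures, and per-length shares. Transcript lengths and shared windows came from GENCODE release 29 (GRCh38), not the authors' build, matched by gene identifier.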

Additional observations from a re-analysis of the deposited data

How the results depend on the processing

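No paired analysis was possible because each group has 1 library, and for the same reason no library could be left out. Under the 3 other scalings (total counts, upper quartile and the size factors of DESeq2), the fold of each of the 5 members stayed within its counting interval, and GBP1 and GBP2 still met the size rule. The count of 2 members that were higher rested on the CPM minimum and the fold limit: it was 4 with no minimum and 0 with a minimum of 5 CPM, which leaves no member to count. It was 1, GBP1, with a limit of 4-fold, and 1, GBP1, with an assumed coefficient of variation between cultures of 0.2 or 0.4. With 0.4, the interval of the GBP1 fold was 4.62 to 62.9, that of GBP2 0.872 to 11.5 and that of GBP3 1.33 to 73.4. The interval of GBP4 was 0.987 to 432 and that of GBP5 0.615 to 10.6. These are normal intervals of the log fold, with a pseudocount, and not exact ones. Their upper limits therefore cannot be set against the exact limits given above. Per kilobase of longest transcript, the GBP1 share of the pool in lncPSCA was 71.8%. Depth limits GBP3, GBP4 and GBP5 most, with 1, 0 and 6 control reads. In the lists around the GBPs, 26 genes were higher, against 21 with a limit of 4-fold and 19 with a spread of 0.4. Of the interferon gamma signal genes, 1 was higher with a limit of 4-fold and none with a spread of 0.4. No NF-kB regulator was higher under either setting.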
